A study of Rattus norvegicus with 6 samples.

Results

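The core circadian clock was described through 10 genes, Arntl, Clock, Npas2, Per1, Per2, Per3, Cry1, Nr1d1, Nr1d2 and Dbp, among the 21655 named genes of a rat lung RNA-seq series. They were found by gene name in the table of linear transcripts, where they owned 71 of 70376 transcripts, and the FPKM of the transcripts of a gene were added in each library. FPKM is the number of sequenced fragments of a transcript scaled to its length and to the size of the library. All 10 genes were detected in all 6 libraries.

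The clock of a mammalian cell is a feedback loop in which Arntl (also called Bmal1) pairs with Clock or Npas2 and switches on the Per, Cry, Nr1d and Dbp genes. The Per and Cry proteins then block that pair, and the Nr1d proteins repress Arntl, so that Arntl and the group of Dbp, Per and Nr1d peak at opposite times of day. The lung holds a strong clock of its own, and the ratio of Arntl to Dbp in a single specimen is therefore a rough sign of the hour at which it was taken.

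The series compared lungs of Sprague-Dawley rats that were 7 weeks old at the start. The PF model rats received a single intratracheal dose of bleomycin, 7 mg/kg, which injures the lung and leaves pulmonary fibrosis. The control rats received the same volume of saline, and the lungs of both groups were collected after 28 days. The 3 control and 3 PF model libraries were made from total lung RNA after removal of ribosomal RNA, and the light cycle and the hour of killing were not given in the sources used here. In such bulk samples, fewer cells of a type and less RNA per cell cannot be told apart.

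The libraries held about 32695800 to 37470600 reads on named genes, as estimated from the deposited coverage and a read length of 150 bases. Lung markers were high in all 6, with Sftpc, Sftpb and Lamp3, genes of type 2 alveolar cells, adding up to 3348 to 5116 FPKM. PF model 3 stood apart in the cardiac muscle markers Myh6 and Actn2. The sum of Myh6, Actn2 and Nppa was 5.84 FPKM in that lung and at most 0.198 FPKM in the other 5. Myh6 gave 5.11 FPKM of it and Actn2 0.577 FPKM. Nppa did not set that lung apart, at 0.150 FPKM against 0.167 and 0.154 FPKM in PF models 1 and 2. The fibroblast markers Col1a1, Col3a1 and Pdgfra summed to between 244 and 269 FPKM in the controls and to between 274 and 345 FPKM in the PF models. Col3a1 carried most of this, with means of 169 and 208 FPKM. The groups overlapped for Col1a1 and for Pdgfra, whose mean was lower in the PF model (26.1 and 24.9 FPKM). The part of these markers in the clock values was not tested. Col3a1 and Nppa passed the unadjusted p described below, both higher in the PF model, where 4.91% of all genes passed in either direction. Nppa had about 7.20 reads at most and met the filter on low values only through the PF models. No marker tested of type 1, type 2 or airway cells, endothelium, smooth muscle, macrophages, neutrophils, T or B cells, mesothelium or red cells passed. The macrophage marker Cd68 was at 1.30 FPKM in control 3, 1.21 FPKM in PF model 2 and 20.7 to 22.8 FPKM elsewhere. Mrc1, also of macrophages, ranged only from 10.2 to 16.6 FPKM. Ucp1, the brown fat marker, was at most 0.0392 FPKM. Foxj1, Pecam1, Cldn5, Marco and Alb were not analysed here.

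Promoter sequences of Arntl, Per2 and Nr1d1 are shown because each holds a short DNA element that the loop is known to use. They are RefSeq promoters of the GRCr8 build, from 250 bases before to 50 bases after a start site, and the elements are in capitals. The Arntl promoter at chr1:176766078-176766377 on the plus strand held a RORE (ANTAGGTCA), the site at which Nr1d1 and Nr1d2 repress and Rora activates. The Per2 promoter at chr9:99496944-99497243 on the minus strand held a D-box (TTANNTAA), the site of Dbp, and an E-box variant (CACGTT). The second of the Nr1d1 promoters, at chr10:84229405-84229704 on the minus strand, held an E-box (CACGTG), the site of the Arntl pair.
Arntl: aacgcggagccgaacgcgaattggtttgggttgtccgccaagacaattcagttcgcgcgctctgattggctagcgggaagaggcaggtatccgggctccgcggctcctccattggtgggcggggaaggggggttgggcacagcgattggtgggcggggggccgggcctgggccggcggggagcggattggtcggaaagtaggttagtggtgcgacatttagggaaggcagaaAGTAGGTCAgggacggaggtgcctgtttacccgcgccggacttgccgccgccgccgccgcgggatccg
Per2: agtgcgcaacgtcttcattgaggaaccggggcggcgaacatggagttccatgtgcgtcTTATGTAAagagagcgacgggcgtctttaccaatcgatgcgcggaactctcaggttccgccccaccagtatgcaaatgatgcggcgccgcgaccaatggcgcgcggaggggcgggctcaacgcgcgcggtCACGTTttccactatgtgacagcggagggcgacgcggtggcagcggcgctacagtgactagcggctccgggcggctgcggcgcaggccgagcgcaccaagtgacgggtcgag
Nr1d1: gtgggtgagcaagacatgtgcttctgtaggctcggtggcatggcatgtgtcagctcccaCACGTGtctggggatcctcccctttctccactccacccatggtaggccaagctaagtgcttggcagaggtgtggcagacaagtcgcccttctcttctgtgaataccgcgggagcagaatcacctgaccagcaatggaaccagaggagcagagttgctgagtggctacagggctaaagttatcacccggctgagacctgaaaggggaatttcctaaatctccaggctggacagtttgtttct
RefSeq listed promoters for 9 of the 10 genes, 11 in all, and gave none for Cry1. Both strands were searched, and no match overlapped another. The RORE was found in 1 of the 9 genes and in 0.657% of the 33469 promoters of the table. The D-box was found in 1 gene and in 5.84% of all promoters, the E-box in 1 gene and in 6.42%, and the E-box variant in 2 genes, Per2 and Nr1d1, and in 4.83%. The cyclic AMP response element TGACGTCA, present in 1.83% of promoters, was in none of the 11 windows. These matches describe letters in a window and not bound sites.

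The 3 activators, Arntl, Clock and Npas2, all had lower mean levels in the PF model. Arntl, whose protein is the indispensable part of the activating pair, was the 1 member called. Its level was 6.66, 5.32 and 8.54 FPKM in controls 1 to 3 and 3.14, 4.58 and 2.13 FPKM in PF models 1 to 3. Every PF model lung was below every control lung. The means were 6.84 ± 1.62 FPKM (SD, n = 3) and 3.28 ± 1.23 FPKM (SD, n = 3), and the log2 ratio of the means was -1.06. In limma on log2(FPKM + 1), Arntl differed by -0.89 (SE 0.25, 95% interval -1.50 to -0.29), with an unadjusted p of 0.0109 and a Benjamini-Hochberg adjusted p of 0.933. An exact two-sided permutation test of the FPKM gave p = 0.1, the smallest that 3 against 3 samples allow. No adjusted p of the 10 genes was below 0.933, so the p-values given for single genes below are unadjusted and from the same limma fit over all genes.

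A gene was called, after the thresholds of the study, at an unadjusted p of at most 0.05 and a log2 ratio of group means of at least 1 in size. By that rule 298 of 19645 genes tested were called (1.52%), 168 of them lower in the PF model (0.855%) and 130 higher. After rescaling to TPM the split was 141 lower and 196 higher. The unadjusted p alone passed for 965 genes (4.91%), 545 of them lower (2.77%), and an adjusted p below 0.05 was reached by 2 genes (0.0102%), neither a clock gene. Against this background, 1 of the 10 clock genes passed the unadjusted p, lower in the PF model, and none passed it higher in the PF model. By sign alone, 5 of the 10 genes had a log2 difference above 0 and 5 below 0. The median log2 difference was 0.04 over the 10 genes and -0.01 over all genes tested.

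The Arntl call turned on single libraries and on which transcripts were added. Without control 3 the log2 ratio of means was -0.87 (unadjusted limma p of 0.0375), and without PF model 3 it was -0.83 (unadjusted limma p of 0.0270), both short of the required size. Arntl had 3 transcripts. The annotated one, of 21 exons, lay between bases 178039063 and 178137465 of chromosome 1, on the plus strand of the rat build of the files, whose name was not given in the sources used here. It gave 49.5% of the gene's FPKM and stood at 2.21, 2.81 and 3.89 FPKM in the controls and at 2.08, 2.89 and 1.16 FPKM in the PF models, so that the groups overlapped. An assembled transcript of 12 exons, at 2.09, 1.66 and 1.42 FPKM in the controls and 0.446, 0.713 and 0.504 FPKM in the PF models, did not overlap between groups. With annotated transcripts alone the Arntl difference was -0.40 on the log2 scale (unadjusted limma p of 0.195). The rest came from a single-exon piece of 323 bases inside an intron, which ranged from 0.855 to 3.24 FPKM in the controls and from 0.472 to 0.976 FPKM in the PF models.

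Clock, the usual partner of Arntl, was at 9.62, 8.37 and 8.64 FPKM in the controls and at 7.42, 7.92 and 7.08 FPKM in the PF models. Its groups also lay apart, by a small step, as they did for 1154 of all genes tested in the same direction (5.87%). The log2 difference was -0.22 (SE 0.10, 95% interval -0.45 to 0.01, unadjusted limma p of 0.0584). Npas2, which can replace Clock, was at 14.9, 12.5 and 20.6 FPKM in the controls and at 11.4, 12.7 and 5.88 FPKM in the PF models. Control 3 was the highest and PF model 3 the lowest, while PF model 2 lay above control 2. Npas2 differed by -0.66 on the log2 scale (SE 0.30, 95% interval -1.38 to 0.06, unadjusted limma p of 0.0675). Of the Npas2 signal, 60.2% came from 5 pieces inside introns, and the annotated transcript gave 1.04%. With transcripts of class codes =, c and j, which leave out those pieces, the difference was -0.48 (unadjusted limma p of 0.145). Spliced transcripts did not move alike. One was at 2.99, 1.94 and 4.81 FPKM in the controls and at 0.0431, 0.0191 and 0.327 FPKM in the PF models. Another was higher in the PF models, at 3.70, 4.18 and 1.58 FPKM, than in the controls, at 0.356, 1.03 and 0 FPKM.

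**Figure D1:**
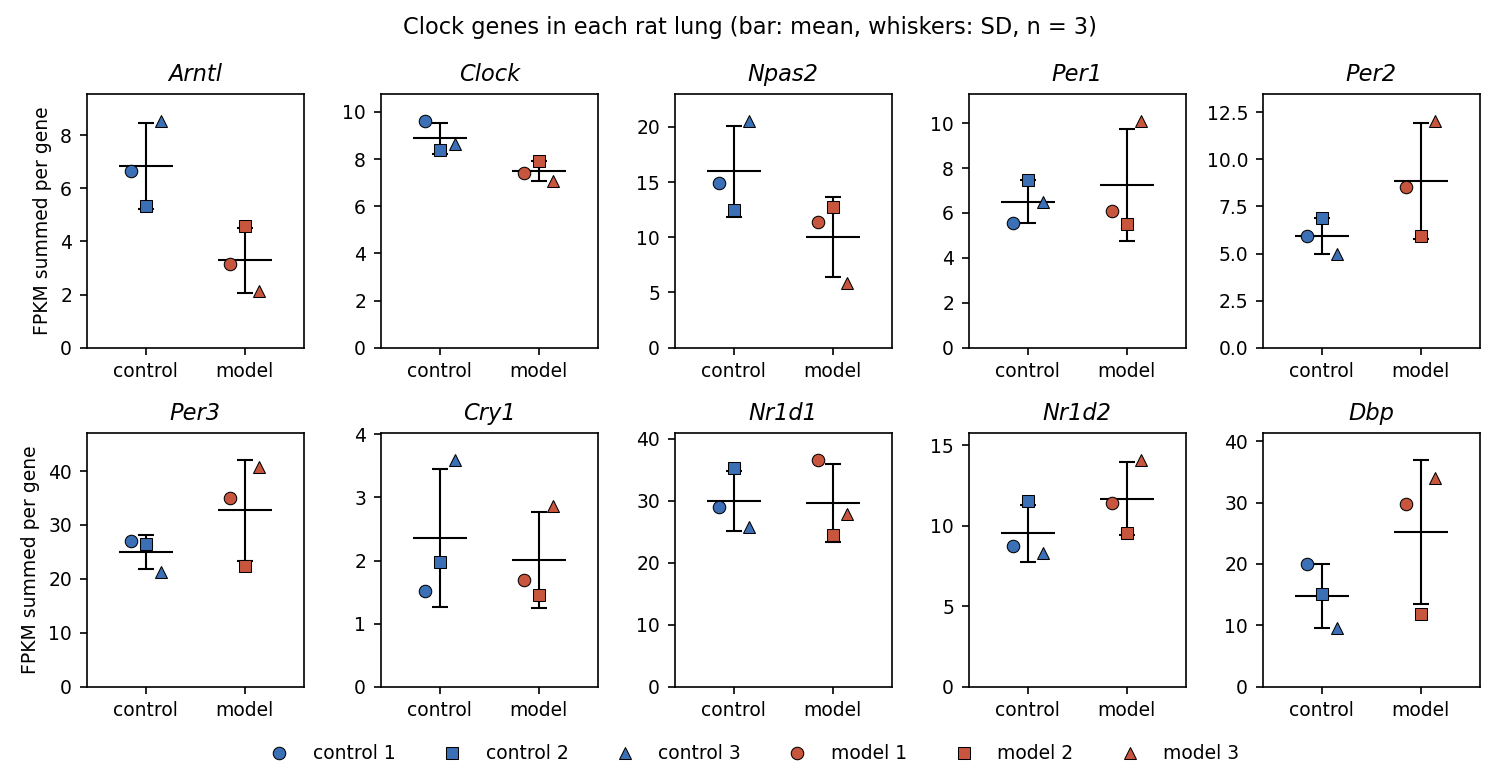
FPKM of the 10 clock genes in each lung, with 1 panel per gene and an axis from 0. Symbols are single rats, the bar is the group mean and the whiskers the SD of 3 rats. Arntl and Clock show no overlap between groups, and PF model 3 (red triangle) is the highest lung for 5 genes and the lowest for 3.

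The Per and Cry genes encode the repressors of the loop. Per2 was at 5.91, 6.89 and 4.98 FPKM in the controls and at 8.53, 5.91 and 12.1 FPKM in the PF models. PF models 1 and 3 were above all controls, and PF model 2 was level with control 1. Per2 differed by 0.47 on the log2 scale (SE 0.24, 95% interval -0.12 to 1.05, unadjusted limma p of 0.0992). The annotated Per2 transcript, 63.5% of the signal, gave 3.52, 3.88 and 2.92 FPKM in the controls and 5.53, 3.38 and 8.89 FPKM in the PF models, with the same lungs at both ends. The rest of the Per2 signal was a single-exon piece inside an intron.

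Per3, whose loss has milder effects on the clock than that of Per1 or Per2, was at 27.1, 26.4 and 21.3 FPKM in the controls and at 35.0, 22.3 and 40.7 FPKM in the PF models. The order of the lungs resembled that of Per2, with control 3 lowest and PF model 3 highest. Between groups the log2 difference of Per3 was 0.34 (SE 0.22, 95% interval -0.20 to 0.88, unadjusted limma p of 0.173). Of the 18 Per3 transcripts, an annotated single exon of 312 bases gave 25.9% of the FPKM, so the summed level leaned on a short feature.

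Per1, the Per gene that responds fastest to light and to glucocorticoids, was at 5.55, 7.46 and 6.48 FPKM in the controls and at 6.09, 5.52 and 10.1 FPKM in the PF models. The groups overlapped, and PF model 3 stood above the rest. Its level included an assembled transcript at 2.08 FPKM (at most 0.374 FPKM elsewhere) and another at 2.76 FPKM (at most 0.522 FPKM elsewhere). Both ran past the annotated gene at both ends. Per1 differed by 0.10 on the log2 scale (SE 0.22, 95% interval -0.43 to 0.64, unadjusted limma p of 0.658), and it was -0.13 without PF model 3. Of its 11 transcripts the annotated one, bases 55687050 to 55695994 of chromosome 10, gave 4.13% of the FPKM. The leading assembled one ran from 55681537 to 55697430, beyond the annotated gene at both ends. Whether reads of neighbouring genes are counted in it, or in the transcripts high in PF model 3, was not tested.

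Cry1, a strong repressor of the Arntl pair, was the lowest of the 10 genes. It was at 1.51, 1.98 and 3.60 FPKM in the controls and at 1.69, 1.45 and 2.87 FPKM in the PF models. Lungs number 3 of both groups were the highest, and the groups overlapped. The log2 difference was -0.14 (SE 0.28, 95% interval -0.82 to 0.53, unadjusted limma p of 0.622). An intronic piece of 235 bases, which gave 25.3% of the FPKM, was at 1.86 FPKM in control 3 and 0.991 FPKM in PF model 3 and at most 0.253 FPKM elsewhere. The annotated Cry1 transcript ranged only from 1.26 to 1.77 FPKM in the controls and from 1.45 to 1.88 FPKM in the PF models, and the difference of annotated transcripts was 0.0495.

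Nr1d1 and Nr1d2 encode the REV-ERB receptors, which repress Arntl. Nr1d1 was at 28.9, 35.3 and 25.8 FPKM in the controls and at 36.6, 24.4 and 27.9 FPKM in the PF models. The ranges lay almost on top of each other, and the log2 difference was -0.03 (SE 0.18, 95% interval -0.45 to 0.40, unadjusted limma p of 0.888). Its sign turned after rescaling to TPM, where it was 0.0573, and without control 2, where it was 0.0933. An assembled transcript gave 14.8 FPKM of the level of control 2 and at most 0.00255 FPKM in any other lung. Annotated transcripts gave 5.42% of the Nr1d1 FPKM. The leading assembled one, at 52.4%, ran from 86681053 to 86691139 of chromosome 10, past the annotated 86683875 to 86690815. Nr1d1 is known to overlap the end of Thra, a receptor gene on the opposite strand, which leaves its level uncertain.

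Nr1d2 was at 8.72, 11.5 and 8.30 FPKM in the controls and at 11.4, 9.55 and 14.1 FPKM in the PF models. PF model 3 was the highest and control 3 the lowest, with overlap in between. The overlap leaned on control 2, where an assembled transcript gave 2.92 FPKM. That transcript was at 0 in every other lung. The log2 difference was 0.27 (SE 0.17, 95% interval -0.15 to 0.69, unadjusted limma p of 0.173). An intronic piece listed on the strand opposite to the gene gave 23.2% of the Nr1d2 FPKM. The kit named in the labels marks strand, but whether counting used it was not given in the sources used here.

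Dbp, a transcription factor that carries the output of the loop to other genes and has one of its widest daily swings, had the widest spread within groups of the 10 genes by the SD of log2(FPKM + 1). It was at 19.9, 15.1 and 9.49 FPKM in the controls and at 29.7, 11.9 and 34.1 FPKM in the PF models. PF models 1 and 3 were above all controls, whereas PF model 2 lay between controls 2 and 3. Dbp differed by 0.66 on the log2 scale (SE 0.43, 95% interval -0.38 to 1.69, unadjusted limma p of 0.173). With annotated transcripts alone, which gave 21.8% of the Dbp FPKM, it was 0.17 (unadjusted limma p of 0.783).

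Single lungs moved these differences both ways. Without PF model 2, 5 of the 10 clock genes had an unadjusted limma p of at most 0.05 in place of 1, as did 5.70% of the 19334 genes tested in that fit. Arntl then differed by -1.10 on the log2 scale (p of 0.00386), Npas2 by -0.85 (p of 0.0389), Per2 by 0.70 (p of 0.0135), Per3 by 0.59 (p of 0.00642) and Dbp by 1.11 (p of 0.0108). Leaving out any other single lung left Arntl alone past that threshold. Without PF model 2 both Arntl and Dbp met the threshold on fold as well, as did 396 of all genes (2.05%). Without PF model 3 the differences shrank, to -0.35 for Npas2, 0.24 for Per2, 0.17 for Per3, 0.13 for Nr1d2 and 0.38 for Dbp. Without control 3 that of Dbp was 0.39.

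**Figure D2:**
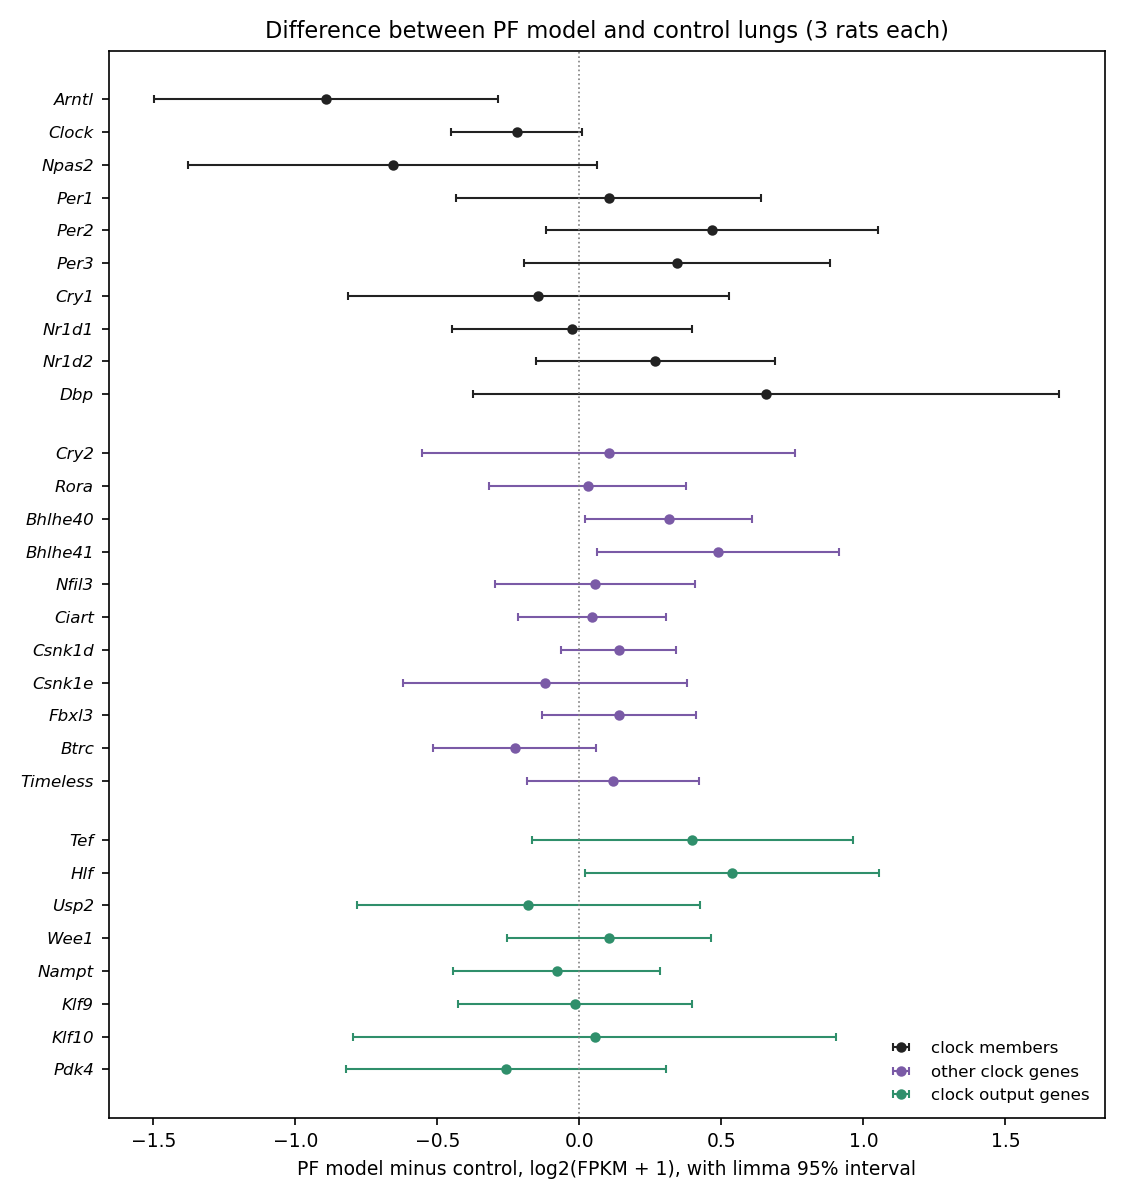
Difference between PF model and control lungs on the log2(FPKM + 1) scale for the 10 clock genes, the 11 other clock genes with a mean of at least 1 FPKM and 8 output genes. Points are limma estimates and bars 95% intervals, from 3 rats per group. Among the 10 clock genes, only the interval of Arntl leaves out 0.

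Of the 9 other clock genes, 6 varied with Arntl by an unadjusted Pearson p of at most 0.05, with both groups pooled. The permutation exchanged lungs of both groups. Its p-values therefore do not separate variation between rats from the difference between groups, which lay apart for Arntl. The share of all genes that would pass the same p was not computed. Across the 6 lungs, Arntl rose with Npas2 (Pearson r = 0.94, exact permutation p = 0.00278, adjusted p = 0.0188) and fell with Per2 (r = -0.94, exact permutation p = 0.00417, adjusted p = 0.0188). Adjustment was by Benjamini-Hochberg over the 9 relations of Arntl with the other members. Spearman's rho was 0.94 with Npas2 and -0.94 with Per2 (exact permutation p = 0.0167 and adjusted p = 0.05 for each). With the lungs that lay farthest from the median of Arntl left out, PF model 3 and control 3, r was 0.92 with Npas2 and -0.81 with Per2 over the other 4.

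Clock rose with Arntl (r = 0.87, exact permutation p = 0.0264, adjusted p = 0.05), with a rho of 0.94 (exact permutation p = 0.0167, adjusted p = 0.05) and an r of 0.95 without the same pair of lungs. Nr1d2 had r = -0.90 (exact permutation p = 0.0181, adjusted p = 0.05) and rho = -0.83 (exact permutation p = 0.0583, adjusted p = 0.131). Per3 had r = -0.87 (exact permutation p = 0.0278, adjusted p = 0.05) and rho = -0.77 (exact permutation p = 0.103, adjusted p = 0.154). Dbp had r = -0.83 (exact permutation p = 0.0444, adjusted p = 0.0667) and rho = -0.77 (exact permutation p = 0.103, adjusted p = 0.154). For these last 3 the relation rested on PF model 3 and control 3, without which r was -0.64 for Nr1d2, -0.57 for Per3 and -0.46 for Dbp.

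No relation with Arntl was detected for Per1 (r = -0.59, exact permutation p = 0.224, adjusted p = 0.288, rho = -0.26, exact permutation p = 0.658, adjusted p = 0.803), and r was -0.04 without that pair. Nr1d1 had r = -0.26 (exact permutation p = 0.611, adjusted p = 0.688) and rho = -0.20 (exact permutation p = 0.714, adjusted p = 0.803), with r at -0.38 over the other 4 lungs. Cry1 had r = 0.10 (exact permutation p = 0.857, adjusted p = 0.857) and rho = 0.14 (exact permutation p = 0.803, adjusted p = 0.803), with r at -0.11 over the other 4. By Spearman's rho, 3 of the 9 relations had an unadjusted p of at most 0.05. The Pearson p was above 0.05 for Clock after rescaling to TPM (exact permutation p = 0.0514) and for Nr1d2 with transcripts of class codes =, c and j, which leave out the intronic pieces (exact permutation p = 0.0556).

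Rats of the same group were also compared with each other. When each lung was expressed as its deviation from its group mean, r with Arntl was 0.94 for Npas2, -0.98 for Per2, -0.96 for Nr1d2, -0.91 for Per3 and -0.84 for Dbp. It was lower for Clock, at 0.57, and it was -0.79 for Per1, -0.56 for Nr1d1 and -0.14 for Cry1. These deviations are a description and carry no test. Within the PF models, Arntl and Npas2 both ran from PF model 2 down through PF model 1 to PF model 3, and Per2, Per3, Nr1d2 and Dbp ran in the reverse order. Among the controls, Arntl and Npas2 ran from control 3 down through control 1 to control 2, and Per2 and Nr1d2 in reverse. The place of control 2 for Nr1d2 leaned on the transcript listed in that lung alone. Per3 and Dbp were lowest in control 3 but higher in control 1 than in control 2.

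**Figure D3:**
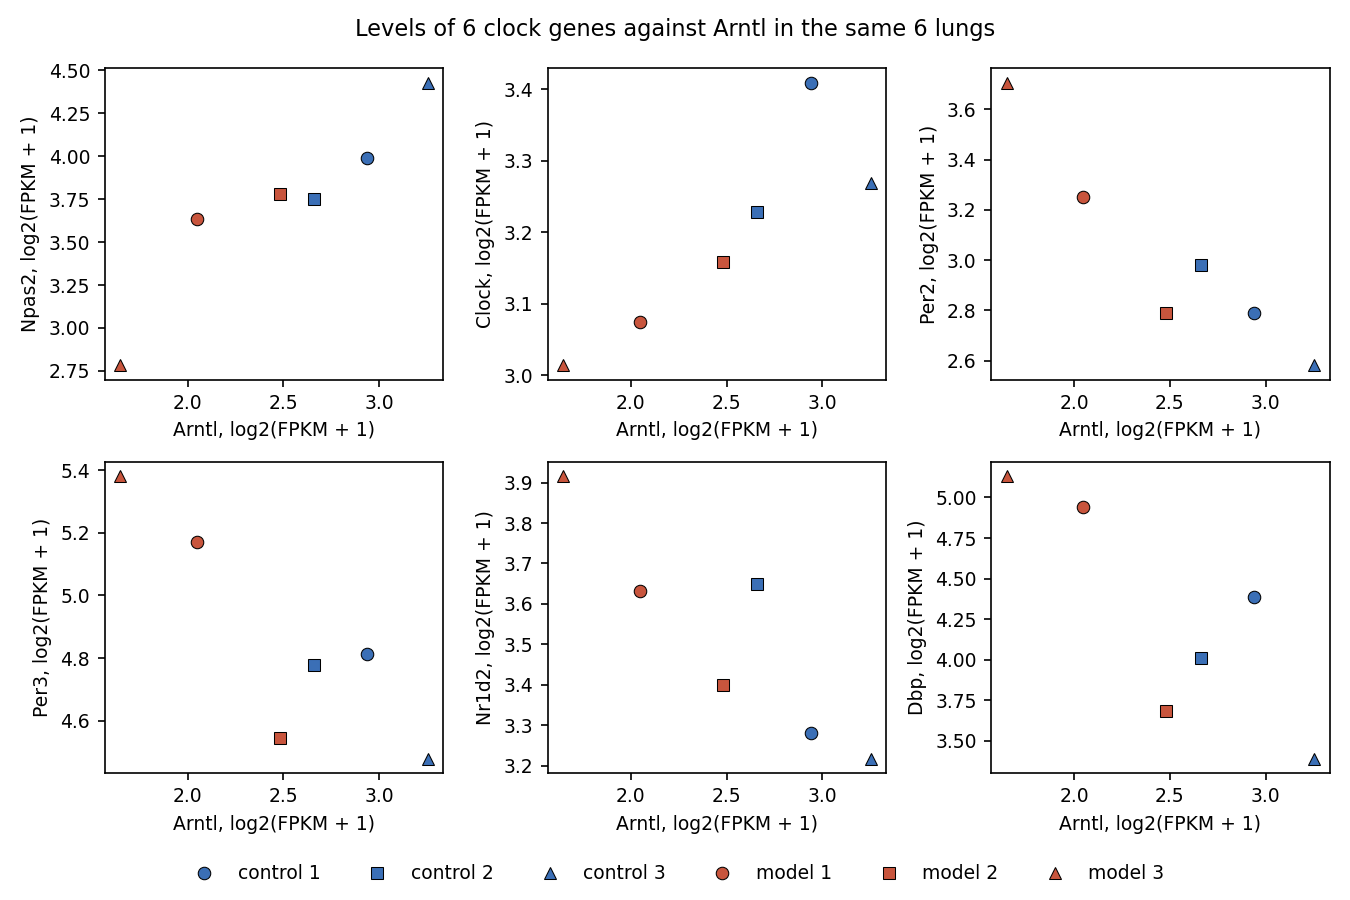
Levels of Npas2, Clock, Per2, Per3, Nr1d2 and Dbp against Arntl in the same 6 lungs, all as log2(FPKM + 1). Each symbol is 1 rat. Npas2 and Clock rise with Arntl and the other 4 fall, with control 3 and PF model 3 at the ends of the Arntl axis.

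Ratios between genes of opposite phase put each lung on 1 scale. The log2 ratio of Arntl to Dbp, each as FPKM + 1, was -1.45, -1.35 and -0.14 in the controls and -2.89, -1.21 and -3.49 in the PF models. Control 3 was highest, then PF model 2, which lay among the controls, and PF models 1 and 3 were far below. The group means were -0.98 ± 0.73 (SD, n = 3) and -2.53 ± 1.18 (SD, n = 3), a difference of -1.55. Leaving out 1 lung at a time, the difference ranged from -1.07 without PF model 3 to -2.21 without PF model 2. With annotated transcripts alone it was -0.57.

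The ratio of Arntl to Nr1d1 was -1.97, -2.52 and -1.49 in the controls and -3.18, -2.19 and -3.20 in the PF models, again with PF model 2 inside the control range. Its difference was -0.87, and -0.26 with annotated transcripts alone. The ratio of control 2, the lowest of the controls, included the Nr1d1 transcript seen almost only in that lung. The ratio of Arntl to Per2 ran from -0.32 to 0.67 in the controls and from -2.06 to -0.31 in the PF models. For Arntl to Per3 the ranges were -2.12 to -1.22 and -3.73 to -2.06. For Npas2 to Dbp they were -0.40 to 1.04 and -2.35 to 0.09, and for Npas2 to Per2 they were 0.77 to 1.85 and -0.92 to 0.99. In all 6 ratios control 3 was the highest, PF model 3 the lowest and PF model 1 next to it, and the groups overlapped through PF model 2. A difference in hour of killing and an effect of bleomycin cannot be told apart for these ratios, since no hour was given.

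**Figure D4:**
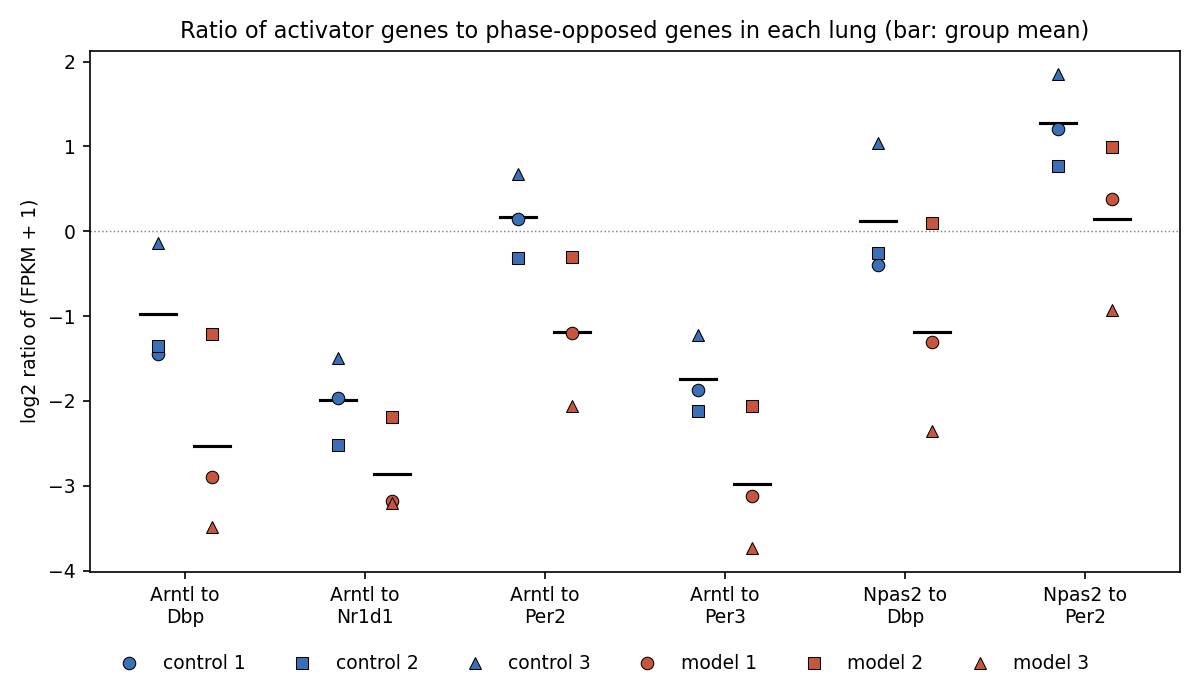
Log2 ratios of Arntl or Npas2 to genes that peak at the opposite time of day, in each lung. Symbols are single rats and bars group means of 3. PF model 2 (red square) lies within the range of the controls in all 6 ratios, and PF models 1 and 3 lie below every control.

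The spread between rats of a group was wide for most clock genes. The SD of log2(FPKM + 1) within groups had a median of 0.344 over the 10 genes and of 0.171 over the 14312 genes with a mean of at least 1 FPKM. It was highest for Dbp, at 0.659 (percentile 96.8 among those genes), followed by Npas2 at 0.452 (percentile 92.3) and Cry1 at 0.402 (percentile 89.8). Clock, whose RNA is nearly flat over the day in most tissues, was lowest at 0.0843 (percentile 11.6). The median over the 10 genes was 0.227 among controls and 0.415 among PF models, and over all those genes it was 0.146 and 0.162. Counting error was estimated from all reads of a gene. The lowest estimated number of reads behind a gene was 173, for Cry1, and 197, for Arntl, which gives a counting error of 7.59% and 7.13%. This understates the error where a summed FPKM leans on short pieces with few reads. Such pieces were the intronic ones of Cry1 (235 bases) and Arntl (323 bases). The part of counting error in the spread of these genes was not tested.

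**Figure D5:**
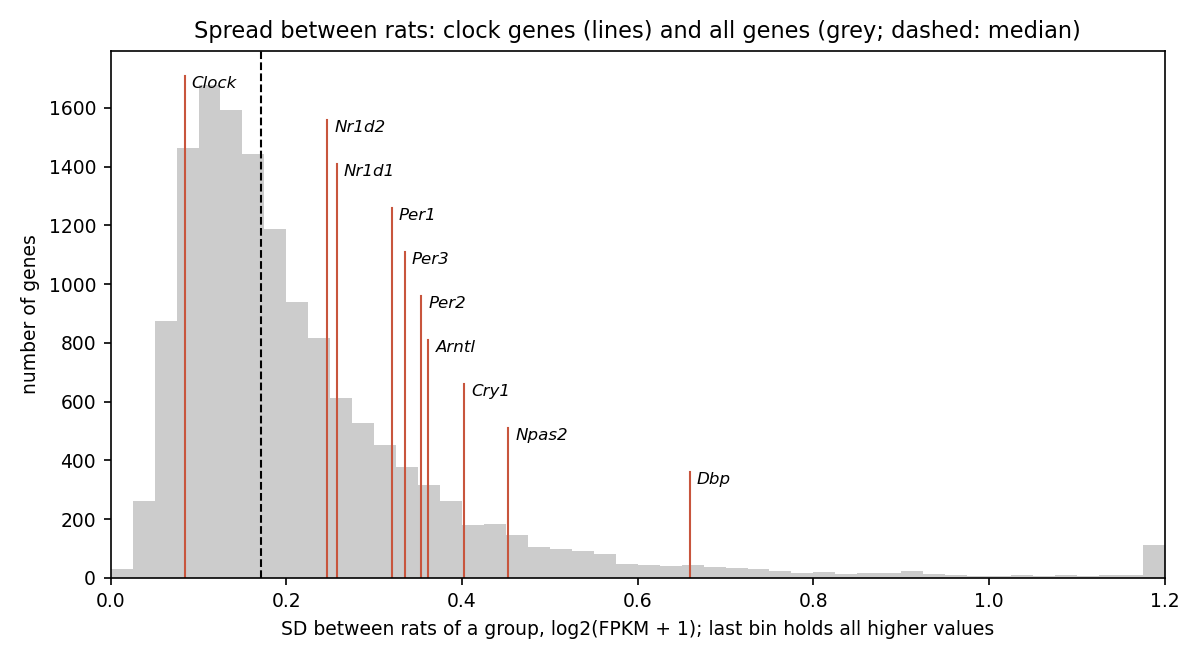
Distribution over genes with a mean of at least 1 FPKM of the SD between rats of a group, on the log2(FPKM + 1) scale. Red lines mark the 10 clock genes and the dashed line the median of all genes, 0.171. Only Clock, at 0.0843, lies left of the median, and Dbp, at 0.659, lies farthest right.

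Of 14 other clock genes, all tested, 2 passed the unadjusted p, both higher in the PF model, and none met both thresholds. Among all genes, 4.91% passed the unadjusted p in either direction. Bhlhe41, a repressor of the Arntl pair also called Dec2, was at 1.74, 1.65 and 1.07 FPKM in the controls and at 2.27, 2.07 and 3.14 FPKM in the PF models. The groups did not overlap, and the log2 difference was 0.49 (SE 0.18, unadjusted limma p of 0.0310, adjusted p = 0.933). Its relative Bhlhe40 (Dec1) was at 10.2, 12.3 and 9.87 FPKM and at 15.2, 13.8 and 12.1 FPKM, with PF model 3 just below control 2. Its log2 difference was 0.31 (SE 0.12, unadjusted limma p of 0.0399, adjusted p = 0.933). Csnk1d, a kinase that marks Per proteins for breakdown, was at 20.7 to 23.1 FPKM against 23.4 to 26.5 FPKM. Groups lay apart with the PF model higher for Bhlhe41 and Csnk1d, as they did for 4.82% of all genes. Arntl2 was listed at 0 in all 3 controls and at no more than 0.0620 FPKM in the PF models. It passed the filter on low values only through the PF models, so its lack of overlap was fixed by the filter. The median difference of the 14 genes was 0.06.

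Cry2, the partner repressor of Cry1, was at 13.4, 15.03 and 12.9 FPKM in the controls and at 16.6, 9.23 and 21.1 FPKM in the PF models. PF model 3 was the highest and PF model 2 the lowest. Rora, a receptor that activates Arntl, and its relative Rorb did not pass. The log2 difference was 0.03 for Rora (95% interval -0.32 to 0.38) and -0.06 for Rorb (-0.58 to 0.46). Nfil3, which competes with Dbp at D-boxes, differed by 0.05 (95% interval -0.30 to 0.41).

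Of 8 output genes of the clock, 1 passed the unadjusted p, against 4.91% of all genes in either direction, and none met both thresholds. Hlf, a relative of Dbp that binds the same D-box, was at 4.22, 4.50 and 3.53 FPKM in the controls and at 5.75, 4.88 and 9.04 FPKM in the PF models. All PF models were above all controls, as for 4.82% of all genes, and the log2 difference was 0.54 (SE 0.22, unadjusted limma p of 0.0440, adjusted p = 0.933). Tef, the remaining gene of this family, was at 21.4, 20.1 and 16.0 FPKM and at 26.2, 18.0 and 34.5 FPKM. Its lungs followed the pattern of Per3, with control 3 lowest and PF model 3 highest. The median difference of the 8 genes was 0.02.

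Among the 14311 other genes with a mean of at least 1 FPKM, the ones most like Arntl over the 6 lungs by Pearson's r were Kpna4, at 0.996, Hif1a, Dnajc2, Atxn7 and Gba2, at 0.981. Npas2 held place 80 and Clock place 337, while Hlf, at place 14286, Bhlhe41, at place 14288, and Per2, at place 14255, were near the opposite end. With so few lungs 212 genes had an r of at least 0.9 with Arntl and 190 an r of -0.9 or below. The genes most like Dbp were Ahnak, at 0.989, Tpcn1, Ecscr, Cpq and Mapkapk2, at 0.987. Per3 held place 14 with an r of 0.98, and Tef place 61 with an r of 0.96. These values are a description and carry no test.

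Glucocorticoids and handling also act on some of these genes. Of 6 steroid responsive genes 1 was higher by unadjusted p, Fkbp5, and 1 lower, Rasd1, where 4.91% of all genes passed that p in either direction. Rasd1 was at 2.25 to 2.77 FPKM in the controls and 0.843 to 1.42 FPKM in the PF models. It met both thresholds, as 1.52% of all genes did (log2 ratio of means -1.08, unadjusted limma p of 0.00276, adjusted p = 0.933). Zbtb16, another of them, was at 37.1 FPKM in PF model 3 and at 9.50 to 16.2 FPKM in the other lungs. Of 6 immediate early genes, which answer to stress within minutes, 1 passed the unadjusted p, Ier2, higher in the PF model, against the same 4.91%. Fos was at 15.7 FPKM in PF model 3 and at 27.8 to 40.4 FPKM in the other lungs. PF model 3, at an end of the range for 8 of the 10 clock genes, was thus also the lung that stood apart in Myh6, Actn2, Zbtb16 and Fos. The part of these in the clock values was not tested.

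Back-splice reads, which come from circular RNAs, were few. Of 5216 circRNAs with 14904 back-splice reads in all, 4 came from the 10 genes and each had 1 read. Those of Cry1 and Per1 were read in control 1, that of Per3 in PF model 1 and that of Per2 in PF model 3. A circRNA was listed for 4 of the 10 genes and for 13.3% of all named genes. The other 6 clock genes had none, where a count of 0 allows up to 3 reads, for counting error only. No comparison between groups was possible at this depth.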

How the data were processed

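Ribosomal RNA-depleted RNA-seq of 3 control and 3 PF model lungs was analysed, with groups and replicate numbers taken from the labels. The authors trimmed reads with Cutadapt, aligned them to a rat genome, assembled and merged transcripts with StringTie and deposited FPKM and coverage (signal) per transcript. Their processing notes name HISAT2 and TopHat, and the build was not given in the sources used here. The authors also deposited counts of back-splice reads per circRNA. Reads per gene were estimated here as coverage times transcript length divided by a read length of 150 bases.

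FPKM were added per gene name. The 19645 of 21655 named genes with FPKM above 0 in at least 3 samples were tested with limma 3.58.1 in R 4.3.3 (trend, log2(FPKM + 1), two-sided, Benjamini-Hochberg over all genes), and a call also needed a log2 ratio of group means of at least 1 in size. A fold change on this scale understates the change of low genes. Correlations used exact permutation over all 720 pairings. Tested on simulated data for this comparison, in which 200 of 19605 genes were shifted by 2 on the log2 scale, the fit found 92.5% of them and called 9 others (adjusted p below 0.05). That shift was larger than the difference of any clock gene, and recovery of smaller shifts was not tested. The labels give a group and a number per library, and the methods of the study describe libraries of 3 rats per group. The members, lists and tests were chosen with earlier results of these data known. Genes outside the 10 members were named from those lists where the unadjusted p was at most 0.05, where groups did not overlap or for their role in the loop, and as the 5 genes most like Arntl and the 5 most like Dbp. Zbtb16 and Fos, from the lists, and single cell markers were named after their values were seen, because PF model 3 stood apart in them or a marker passed the unadjusted p. Cd68 was named in the same way, because control 3 and PF model 2 stood apart in it, and Mrc1 beside it. Marker lists also covered type 1 and airway cells, endothelium, smooth muscle, macrophages, neutrophils, T and B cells, mesothelium, liver, brown fat and red cells. The values of 1 listed gene are not reported here. Alternatives changed the pseudocount, filter, transcripts added, scaling, variance model, block and libraries.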

Additional observations from a re-analysis of the deposited data

How the results depend on the processing

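With 3 rats per group, no clock gene could be separated from the spread between rats after adjustment over all genes. The number of clock genes with an unadjusted p of at most 0.05 was 1 and became 2 with a length-weighted sum, 2 in limma without a trend, 2 with transcripts of class codes =, c and j (an alternative chosen after seeing the data) and 0 with annotated transcripts only, and it ranged from 1 to 5 when 1 library was left out. The number also past the threshold on fold was 1 and became 0 with the length-weighted sum, 0 with annotated transcripts only, 0 after rescaling to TPM and 0 with those class codes, and it ranged from 0 to 2 with 1 library left out. The difference in the Arntl to Nr1d1 log2 ratio, -0.87, was -0.26 with annotated transcripts only. Over all genes, the 298 called genes became 84 with a mean of at least 1 FPKM and 519 with annotated transcripts only. The 2 genes with an adjusted p below 0.05 became 7 with annotated transcripts only, and from 1 to 4 with 1 library left out.

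Signs turned for differences near 0. Cry1, at -0.14, was 0.0298 with the length-weighted sum, 0.0495 with annotated transcripts only and 0.0495 with the class codes, and ranged from -0.34 to 0.11 with 1 library left out. Nr1d1, at -0.03, was 0.0573 after rescaling to TPM and ranged from -0.18 to 0.10, and Per1, at 0.10, from -0.13 to 0.25, with 1 library left out. The correlation of Arntl with Cry1 was -0.25 with the length-weighted sum and -0.39 with the class codes. The correlation of Arntl with Clock lost its unadjusted p of at most 0.05 after rescaling to TPM, and that with Nr1d2 with the class codes. With annotated transcripts only, the Arntl to Dbp difference was -0.57, and the log2 differences of Clock, Npas2, Per3 and Dbp were nearer to 0, at -0.08, -0.22, 0.16 and 0.17. The causes were not tested.

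No pairing by replicate number was seen. The deviations of equal numbers correlated at 0.06, 0.03 and -0.09, and those of unequal numbers at -0.14 to 0.11. With 3 rats per group this check cannot exclude a pairing. With the replicate block 312 genes were called, 0 had an adjusted p below 0.05 in limma (298 called and 2 without the block), and Arntl remained called, at an unadjusted p of 0.0368.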
